A study of Mus musculus with 6 samples.

Results

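The genes of fibroblast growth factor (FGF) signaling and of its feedback on the kinase ERK were examined in mouse embryonic fibroblasts (MEFs) with and without MCM8. The members were the protein-coding genes of the deposited count table whose symbols named an FGF (Fgf), an FGF receptor (Fgfr), the decoy receptor Fgfrl1, an FGF-binding protein (Fgfbp), a Sprouty (Spry) or Spred inhibitor, Etv1, Etv4 or Etv5, Dusp4 or Dusp6, or the adaptors Frs2 and Frs3. This gave 42 of 55565 listed genes. Of these, 34 had reads in at least 1 library and were tested, among 26898 tested genes, and 21 had a mean of at least 1 count per 1000000 counts (CPM) over the 6 libraries.

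Bulk RNA-seq compared 3 wild-type (WT, Mcm8+/+) with 3 knockout (KO, Mcm8-/-) libraries, and asked how the loss of MCM8, a helicase-family protein of DNA repair, altered gene expression. The KO allele lacks exon 7 of Mcm8, removed with CRISPR-Cas9 in mice whose background mixed C57BL/6J with ICR. The MEFs were grown from trunks of embryonic day 13.5 embryos of heterozygous crosses, without head, limbs, tail, liver or heart. Cells of both genotypes carried SV40 T antigen from a lentivirus and had been selected with puromycin. The methods call the 3 libraries of a genotype biological repeats without saying whether they came from separate embryos or cultures, so the p-values measure the spread between these libraries, whatever its source. Both genotypes were grown in medium with serum.

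FGFs are secreted proteins that bind receptor tyrosine kinases together with heparan sulfate chains on the cell surface. The active receptor phosphorylates the docking proteins Frs2 and Frs3, which pass the signal through Ras to the kinases Mek and Erk. Erk activity in turn raises ETS transcription factors of the Etv group and a set of inhibitors, among them Sprouty and Spred proteins and dual-specificity phosphatases, which limit the same pathway. In the embryo, Fgf10 and Fgf7 are made by mesenchymal cells and act on neighboring epithelium through Fgfr2.

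The 250 bases before the annotated start are shown for 5 members as examples of the regulatory sequence beside members that changed. Fgf10 and Fgf7 moved in opposite directions, Spry1 and Etv1 fell most among the feedback inhibitors and ETS factors, and Fgfrl1 was the one called member, of the 8 with a promoter sequence used here, that held the long ETS motif searched there. The sequences are RefSeq's on GRCm38.p6, written 5′ to 3′ on the strand of the gene. Capitals mark the ETS core letters GGAA, or TTCC where the core lies on the other strand.
Fgf10, chr13:118714449-118714698, plus strand: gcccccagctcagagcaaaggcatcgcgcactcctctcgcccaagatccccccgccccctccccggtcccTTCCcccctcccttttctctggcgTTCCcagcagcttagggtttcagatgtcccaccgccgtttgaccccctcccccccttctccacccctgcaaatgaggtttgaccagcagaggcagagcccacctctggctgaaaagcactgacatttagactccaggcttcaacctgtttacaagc
Fgf7, chr2:126034408-126034657, plus strand: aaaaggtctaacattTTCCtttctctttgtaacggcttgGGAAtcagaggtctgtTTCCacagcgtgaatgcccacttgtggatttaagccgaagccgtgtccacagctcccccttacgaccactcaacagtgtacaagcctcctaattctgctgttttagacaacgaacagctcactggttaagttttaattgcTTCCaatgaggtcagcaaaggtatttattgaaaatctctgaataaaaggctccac
Spry1, chr3:37639697-37639946, plus strand: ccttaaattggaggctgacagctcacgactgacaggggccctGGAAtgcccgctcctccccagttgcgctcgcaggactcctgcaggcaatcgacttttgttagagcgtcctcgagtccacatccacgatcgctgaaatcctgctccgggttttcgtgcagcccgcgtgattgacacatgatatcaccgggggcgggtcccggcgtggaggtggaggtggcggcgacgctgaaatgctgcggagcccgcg
Etv1, upstream start, chr12:38779832-38780081, plus strand: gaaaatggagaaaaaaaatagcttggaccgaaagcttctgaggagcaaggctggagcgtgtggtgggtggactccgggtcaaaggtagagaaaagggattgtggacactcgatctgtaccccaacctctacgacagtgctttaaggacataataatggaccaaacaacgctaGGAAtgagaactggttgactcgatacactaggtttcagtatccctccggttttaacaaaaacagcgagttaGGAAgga
Fgfrl1, chr5:108693979-108694228, plus strand: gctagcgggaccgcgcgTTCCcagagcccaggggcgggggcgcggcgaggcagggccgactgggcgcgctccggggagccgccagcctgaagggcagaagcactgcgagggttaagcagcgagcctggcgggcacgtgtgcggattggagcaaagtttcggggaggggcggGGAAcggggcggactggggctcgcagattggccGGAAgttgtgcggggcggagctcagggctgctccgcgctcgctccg
The RefSeq promoters used here covered 32 of the 42 members, with 41 promoters in all, each running from 250 bases before to 50 bases after the start. The motif CCGGAAGT, an extended ETS site searched on both strands, occurred in 4.88% of the members' promoters, those of Fgfrl1 and Frs2, and in 3.89% of all 32851 promoters. In Fgfrl1 it began 48 bases before the start. The AP-1 motif TGANTCA was found in 4.88% of the members' promoters, in Fgf12 and Fgf13, against 7.81% of all. The CRE motif TGACGTCA was in 0 of the 41, against 1.79% of all. A loose SRF pattern, CC and GG with any 6 bases between, which GC-rich stretches often hold, was in 87.8% against 73.3%. The GGAA core occurred a median of 2 times in the 250 bases before the start in members and 3 times over all promoters, and the median GC content was 62.4% in members and 52.4% over all. These matches describe letters only, and counts per gene do not show which start a cell used.

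Sequencing depth was 12722979 to 19019695 counts in the WT libraries and 15954793 to 21022755 in the KO libraries. Mcm8 itself was at 14.4 ± 1.99 CPM in WT (SD, n = 3) and had 29.6% of that level in KO, 4.26 ± 0.170 CPM. The WT1 library stood apart from WT2 and WT3, with a chi-square per degree of freedom of 14.3 and 13.2 against them, while WT2 and WT3 differed by 4.4 and the KO pairs by 2.63 to 3.05. The Y-linked gene Ddx3y averaged 42.6 CPM in KO against 7.77 CPM in WT, and Xist 481 CPM against 1196 CPM, so the sex makeup of the cells and the genotype cannot be told apart. All 10 fibroblast markers examined were above 1 FPKM (fragments per kilobase of exon and 1000000 reads), summing to 2977 to 3167 FPKM in WT and 3001 to 3103 FPKM in KO. Within this sum, which a few abundant genes fill, Col1a1 and Col3a1 were higher and Thy1, Pdgfrb, Dpt and Vim lower, with KO at 49.1%, 59.9%, 59.3% and 87.6% of WT, Vim not being called without KO1 or KO2. Markers of other cell types also moved with genotype. The 12 epithelial markers summed to 2.73 to 3.42 FPKM in WT and 7.80 to 8.44 FPKM in KO, with Esrp1 and Krt5 at 0. Of the 10 tested, 3 were called, the keratins Krt18 (0.396 FPKM in WT and 3.16 FPKM in KO), Krt19 (1.94 and 3.50 FPKM) and Krt8 (0.00904 and 0.384 FPKM), while Epcam and Cdh1 were not called. The 8 mesothelial markers summed to 3.88 to 4.77 FPKM and 18.0 to 20.7 FPKM, with Lrrn4 at 0. Most of the KO sum was Msln, at 0.938 FPKM in WT and 14.6 FPKM in KO, while Bnc1 was lower (log2 fold change -0.60), a call lost with DESeq2 and limma-voom and without WT3, KO1 or KO3, Wt1 had 2 to 7 counts per library, and Krt19 is counted in both sums. The 7 neural and glial markers summed to 11.4 to 12.9 FPKM in WT and 18.1 to 18.9 FPKM in KO, with Sox10 and Snap25 at 0. Endothelial, blood and muscle markers summed to at most 2.34 FPKM in any library. The part of sex and of these markers in the results below was not tested, and in bulk RNA fewer cells of a type and less RNA per cell cannot be told apart.

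In all, 10 members changed between genotypes at an adjusted p below 0.05, from edgeR's quasi-likelihood test with Benjamini-Hochberg adjustment over all tested genes (hereafter, called). They were 10 of the 34 tested (29.4%), where 9.00% of all tested genes were called. Fgf7, Fgf5, Fgfr2 and Fgfrl1 were higher in KO, the direction of 4.97% of all tested genes. Fgf10, Fgf2, Spry1, Spry4, Dusp4 and Etv1 were lower, the direction of 4.03% of all tested genes. Well-expressed genes are called more often, and among genes with a mean of at least 1 CPM, 9 of 21 members (42.9%) were called against 17.0% overall. Of the 34 tested members, 4 (Fgf5, Fgf7, Fgf10 and Etv1) were called and passed a fold of 2 (DEGs), as did 2.42% of all tested genes. Fgf10 and Fgf7 lay close to that threshold, and 2 members passed it without KO1. The members moved in both directions, and the median log2 fold change of those at 1 CPM or more was -0.08, beside -0.01 over all genes at that level. Without WT1, 11 members were called, Etv5 joining them.

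**Figure D1:**
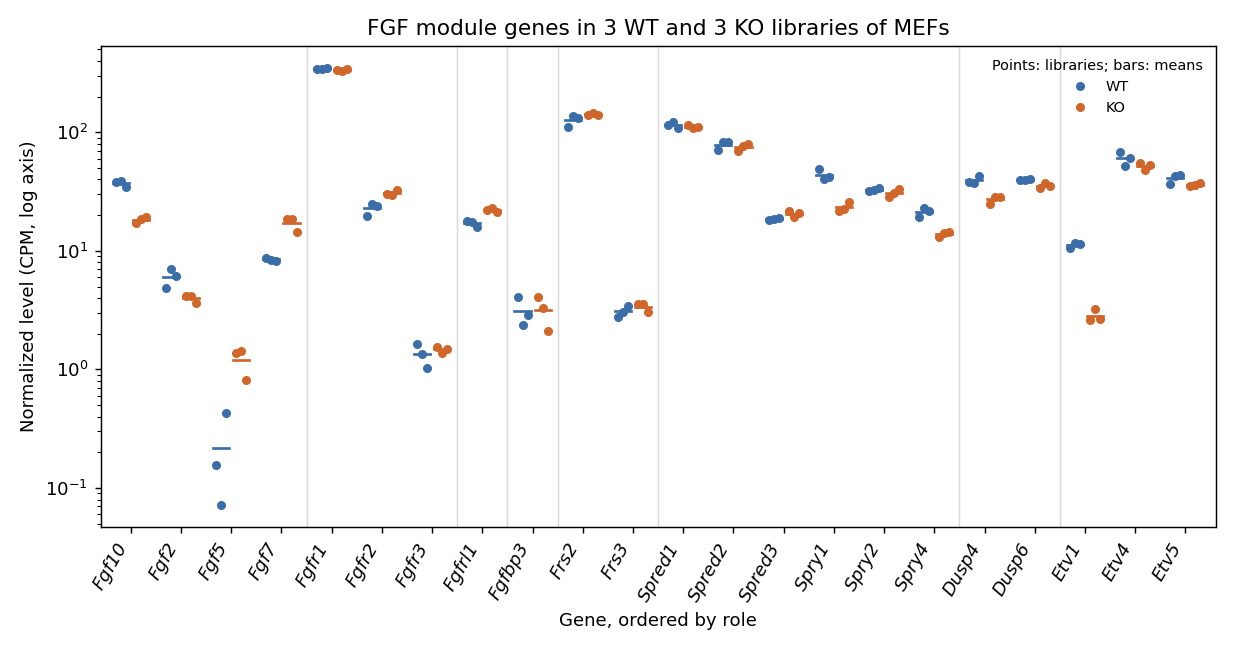
Normalized level in CPM (log axis) of the 21 members with a mean of at least 1 CPM, plus Fgf5, with 1 point per library (blue WT, orange KO) and a bar at each group's mean. Fgfr1 sits near 340 CPM in every library, while Fgf10, Spry1, Spry4, Dusp4 and Etv1 lie lower and Fgf7, Fgf5 and Fgfr2 higher in all 3 KO libraries.

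Of the ligands, Fgf10 was the most abundant in WT and fell in KO. Its level was 38.2, 38.5 and 34.5 CPM in the WT libraries and 17.1, 18.6 and 19.3 CPM in the KO libraries. The groups were far apart, with every KO library under 20 CPM. The log2 fold change was -1.01 (SE 0.10, edgeR adjusted p = 3.76e-21), and it stayed between -1.07 and -0.97 when any library was left out. A lncRNA on the other strand of Fgf10, Gm16263, held 26, 13 and 38 counts in WT and 21, 12 and 12 counts in KO, with a log2 fold change of -1.01 (edgeR adjusted p = 0.0970). The strand setting of the counting was not given in the sources used here, so reads of the pair cannot be separated, although Fgf10 held 309 to 642 counts per library.

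Fgf7, the closest relative of Fgf10 and a ligand of the same epithelial form of Fgfr2, rose. It was at 8.78, 8.34 and 8.27 CPM in WT and at 18.6, 18.5 and 14.5 CPM in KO. The WT values were nearly identical, and the lowest KO library, KO3, still stood well above them. The log2 fold change was 1.03 (SE 0.13, edgeR adjusted p = 1.19e-12) and ranged from 0.97 to 1.14 with any library left out. Its overlapping gene Fam227b held 12 counts in all. Fgf7 lies 6.72 Mb from Mcm8 on chromosome 2. On that chromosome Spred1, 15.6 Mb from Mcm8, had a log2 fold change of -0.05 and was not called.

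On the per-length scale the order of this pair turned over. The ratio of Fgf10 to Fgf7 in FPKM was 3.07, 3.26 and 2.94 in WT and 0.650, 0.711 and 0.936 in KO. Fgf10 thus led in each WT library and Fgf7 in each KO library on this scale. The CPM values, which are not divided by length, were still higher for Fgf10 in KO2 and KO3. Fgf10 made up 64.9% ± 1.82 of the summed FPKM of all 18 secreted ligands in WT and 35.0% ± 3.10 in KO, and Fgf7 21.0% ± 0.668 and 46.4% ± 4.73 (SD, n = 3 each). The sum of the pair was less different, at 10.6 ± 0.593 FPKM in WT and 9.24 ± 0.544 FPKM in KO. All ligands together summed to 12.3 ± 0.472 FPKM in WT and 11.3 ± 0.389 FPKM in KO. The Fgf7 subfamily, which also holds the near-silent Fgf3 and Fgf22, made up 87.2% ± 1.96 in WT and 83.2% ± 1.90 in KO, a difference of -4.02 percentage points (two-sided exact permutation p = 0.1, the smallest that 3 against 3 allows). On CPM instead of FPKM that difference was -0.62 points (exact p = 0.7).

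**Figure D2:**
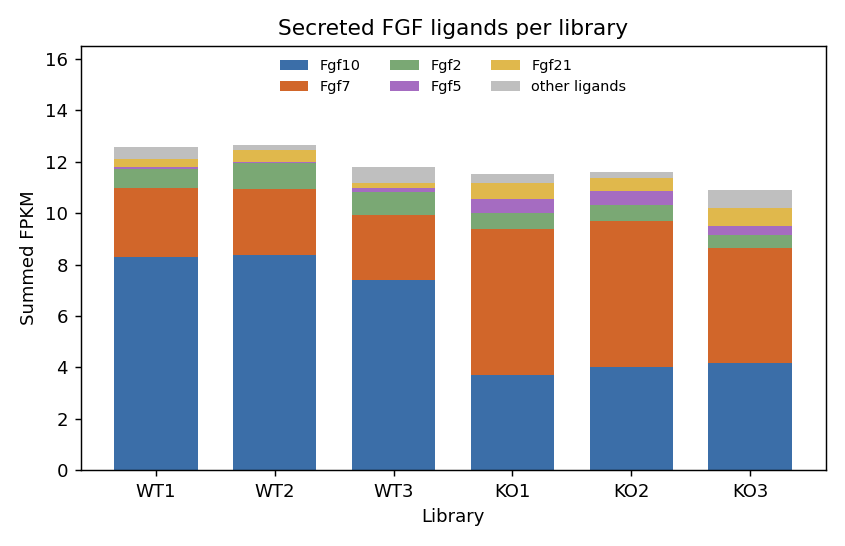
Summed FPKM of the 18 secreted and hormone-like FGF ligands in each library, stacked by gene, with the y axis starting at 0. Fgf10 (blue) fills 62.8% to 66.0% of each WT bar and 32.1% to 38.3% of each KO bar, while Fgf7 (orange) fills 20.3% to 21.5% and 40.9% to 49.4%.

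Fgf2, basic FGF, which fibroblasts make and also respond to, was lower in KO with weaker evidence. It was at 4.86, 7.06 and 6.12 CPM in WT and at 4.15, 4.15 and 3.62 CPM in KO. The groups did not overlap, but the lowest WT library, WT1, was close to the highest KO value. This was a log2 fold change of -0.60 (SE 0.20, edgeR adjusted p = 0.0344), and the call was lost in 8 of 12 alternatives, with adjusted p of 0.0511 to 0.194. Leaving out WT2, WT3, KO1, KO2 or KO3 each ended it. Nudt6, on the other strand of Fgf2, had 113 counts in all and a log2 fold change of 0.40 (edgeR adjusted p = 0.678).

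Fgf5, a ligand best known as a brake on hair growth and as an early embryonic marker, was near the detection limit in WT and higher in KO. It held 2, 1 and 8 counts in the WT libraries and 29, 24 and 13 in the KO libraries, or 0.219 ± 0.187 and 1.21 ± 0.345 CPM. All KO libraries were above all WT libraries, with KO3 the nearest to WT. On the log2 scale the change was 2.33 (SE 0.56, edgeR adjusted p = 7.78e-04), between 1.94 without WT2 and 3.35 without WT3, which held most of the WT counts.

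Fgf9, a ligand used in gonad and lung development, held 13, 5 and 12 counts in WT and 0, 4 and 3 in KO. It did not pass, with a log2 fold change of -2.25 (SE 0.80, edgeR adjusted p = 0.0532), and was called once WT2 was left out (adjusted p = 0.0300). Fgf21, a hormone-like FGF of metabolism, had 4, 6 and 3 counts in WT and 13, 8 and 11 in KO, which also did not pass (log2 fold change 1.00, edgeR adjusted p = 0.480). Both were named after their values were seen. The other tested ligands and the intracellular homologues Fgf11, Fgf13 and Fgf14, which bind sodium channels rather than receptors, held at most 20 counts in any library, and none was called. In all, 8 members had 0 counts in every library, Fgf3, Fgf4, Fgf6, Fgf8, Fgf12, Fgf15, Fgf20 and Fgf23, which at this depth allows 0.143 to 0.236 CPM per library. Fgf16 had counts in KO3 only, 2 of them. Intervals and floors of this kind cover counting error only.

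Of the receptors, Fgfr1, the main FGF receptor of mesenchyme, dominated and did not pass the test. It was at 343, 343 and 350 CPM in WT and at 335, 327 and 343 CPM in KO, with a log2 fold change of -0.04 (SE 0.07, edgeR adjusted p = 0.762). On the per-length scale it reached 34.8 FPKM in WT and 33.8 FPKM in KO, more than 10 times the level of Fgfr2, Fgfr3 or Fgfr4 in both groups.

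Fgfr2, the receptor for Fgf7 and Fgf10, rose. It was at 19.5, 24.7 and 24.1 CPM in WT and at 30.3, 29.5 and 32.4 CPM in KO. The groups did not overlap, and WT1 was the lowest library. Its log2 fold change was 0.43 (SE 0.10, edgeR adjusted p = 6.67e-04), and 0.33 without WT1. Its listed span of 2.96 Mb overlaps 70 other listed genes, 30 of them protein-coding, so its count depends on how reads in that span were assigned. Of the 70, 47 were tested and 2 were called, Htra1 higher (log2 fold change 0.40, edgeR adjusted p = 1.72e-06) and Chst15 lower (-0.58, edgeR adjusted p = 0.00537), the latter not with DESeq2 or limma-voom nor without WT3 or KO2. Gene counts also do not separate the epithelial and mesenchymal splice forms of Fgfr2, which differ in the ligands they bind.

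Fgfr3 and Fgfr4 were scarce. Fgfr3 was at 1.34 CPM in WT and 1.48 CPM in KO, Fgfr4 at 0 to 7 counts per library, and neither was called. As a share of the summed FPKM of all 4 receptors, Fgfr1 made up 93.9%, 93.0% and 93.5% in WT and 91.4%, 91.5% and 90.9% in KO, a difference of -2.18 percentage points between groups that did not overlap (two-sided exact permutation p = 0.1, the smallest possible). Fgfr2 made up 5.89% ± 0.687 in WT and 7.99% ± 0.198 in KO. The summed receptors stood at 37.3 ± 0.278 FPKM and 37.0 ± 0.950 FPKM.

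Fgfrl1, a receptor-like protein without the kinase part, was higher in KO by a small amount. It was at 17.9, 17.7 and 15.8 CPM in WT and at 21.9, 23.0 and 21.4 CPM in KO, without overlap. Its log2 fold change was 0.37 (SE 0.11, edgeR adjusted p = 0.0144). The call was lost with DESeq2 (adjusted p = 0.0508) and without WT3 (0.129), KO1 (0.0740) or KO2 (0.108). Of the carriers that release FGFs from the matrix, Fgfbp3 was at 3.11 CPM in WT and 3.16 CPM in KO with overlapping libraries, and Fgfbp1 had at most 6 counts in a library.

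The docking proteins did not pass the test. Frs2 was at 111, 137 and 131 CPM in WT and at 139, 147 and 141 CPM in KO. All KO libraries were above all WT libraries, but only slightly above WT2, and the log2 fold change was 0.17 (SE 0.07, edgeR adjusted p = 0.150), called only with WT2 left out (0.0333). Frs3, at 3.08 CPM in WT and 3.38 CPM in KO, overlapped between groups. It was the single member whose mean passed 1 FPKM in KO alone, at 0.981 FPKM in WT and 1.08 FPKM in KO, while 17 members passed in both groups.

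**Figure D3:**
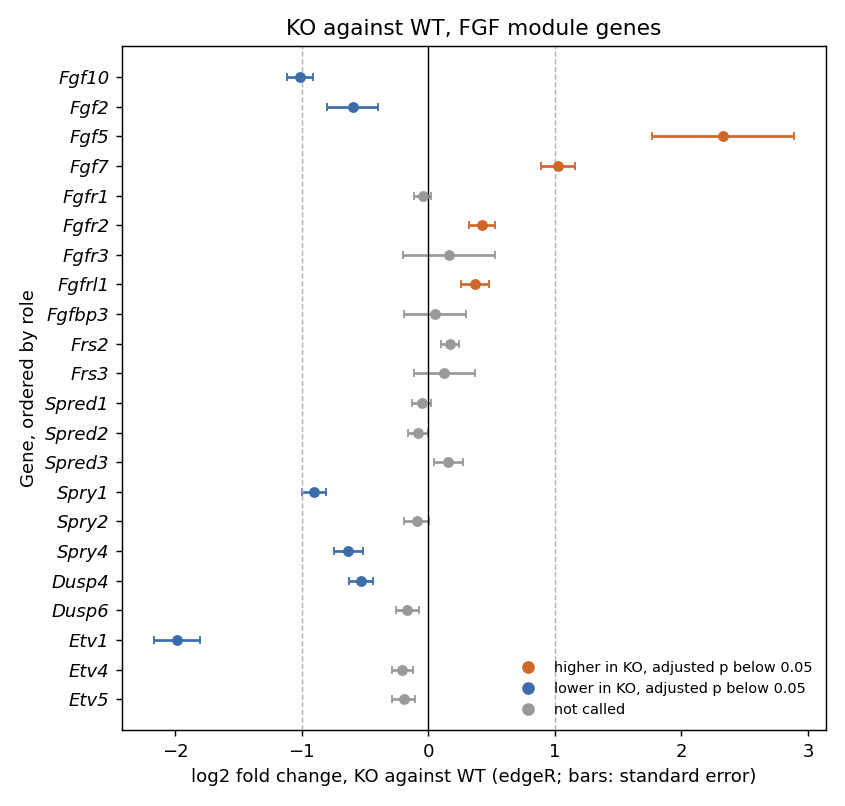
log2 fold change of KO against WT for the same 22 members, ordered by role, with bars for the standard error of the edgeR fit. Orange points were called higher in KO, blue points lower and gray points not called, and the dashed lines mark a 2-fold change in either direction, which Fgf10, Fgf5, Fgf7 and Etv1 passed.

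Of the 11 feedback inhibitors, ERK phosphatases and ETS factors, 4 were lower in KO, 0 were higher and 7 were not called, with a median log2 fold change of -0.19. All 11 had at least 1 CPM, so the 36.4% called stand beside 17.0% of all genes at that level, and the median beside -0.01.

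Spry1, a Sprouty protein that restrains receptor tyrosine kinase signaling upstream of Erk, fell the most of the inhibitors. It was at 48.8, 40.3 and 41.6 CPM in WT and at 21.9, 22.4 and 25.8 CPM in KO. The lowest WT library lay well above the highest KO library. The log2 fold change was -0.90 (SE 0.10, edgeR adjusted p = 9.73e-19).

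Spry4, a relative with the same role, was at 19.4, 22.8 and 21.7 CPM in WT and at 13.0, 14.2 and 14.3 CPM in KO. It too was separated between groups, with a log2 fold change of -0.63 (SE 0.12, edgeR adjusted p = 2.57e-06). Spry2 was at 31.9, 32.5 and 33.6 CPM in WT and at 28.4, 30.8 and 33.1 CPM in KO, with overlap, and was not called (log2 fold change -0.09, edgeR adjusted p = 0.682). The 3 Sprouty genes summed to 35.0 ± 1.04 FPKM in WT and 25.6 ± 1.96 FPKM in KO. Their composition differed too, as Spry1 and Spry2 were alike in WT, at 13.8 to 16.8 FPKM and 15.3 to 15.9 FPKM, while in KO Spry1 was at 7.47 to 8.83 FPKM and Spry2 at 13.5 to 15.8 FPKM.

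The Spred proteins, which block the step from Ras to Raf, were not called. Spred1 was at 116 CPM in WT and 112 CPM in KO, Spred2 at 78.8 CPM and 74.8 CPM, and Spred3 at 18.5 CPM and 20.6 CPM. Their log2 fold changes ran from -0.08 to 0.16.

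Among the phosphatases that switch Erk off, Dusp4, which acts in the nucleus, fell. It was at 38.1, 37.6 and 42.5 CPM in WT and at 24.7, 28.7 and 28.6 CPM in KO, without overlap. Its log2 fold change was -0.53 (SE 0.10, edgeR adjusted p = 9.67e-07). Dusp6, which acts on Erk in the cytoplasm and is a common readout of FGF signaling, was at 39.4, 39.6 and 40.4 CPM in WT and at 34.0, 37.3 and 35.3 CPM in KO. Its libraries did not overlap either, but the difference was small and not called (log2 fold change -0.17, SE 0.09, edgeR adjusted p = 0.341).

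Etv1 fell further than any other called member. It was at 10.6, 11.7 and 11.3 CPM in WT and at 2.60, 3.25 and 2.69 CPM in KO. The KO libraries stood at 25.4% of WT on average, far outside the spread within either group. The log2 fold change was -1.98 (SE 0.18, edgeR adjusted p = 2.32e-25). Etv4 and Etv5, the other ETS factors of this group, were more abundant and less different. Etv4 was at 67.6, 52.1 and 60.9 CPM in WT and at 54.9, 48.3 and 53.4 CPM in KO, and Etv5 at 36.8, 42.5 and 43.8 CPM in WT and at 35.0, 35.8 and 37.2 CPM in KO. Both overlapped between groups and were not called, with log2 fold changes of -0.20 and -0.19 (edgeR adjusted p = 0.125 and 0.217). A single library decided each, since Etv4 was called without WT2 (0.0129) and Etv5 without WT1 (0.0166). Per length Etv1 was the scarcest of the group, at 0.194 to 0.878 FPKM per library, below Etv4 at 15.5 to 21.8 FPKM and Etv5 at 8.48 to 10.6 FPKM.

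Around the members, of 21 Ras-ERK cascade genes from the adaptor to the kinases, 2 were called, both higher in KO, with a median log2 fold change of 0.05. This is 9.52%, beside 9.00% of all tested genes and 17.0% of those at 1 CPM or more. Without WT1, 5 were called, and without any other library 1 or 2. Rps6ka1, a kinase activated by Erk, was at 11.5 ± 0.616 CPM in WT and 16.9 ± 0.382 CPM in KO (log2 fold change 0.55, SE 0.13, edgeR adjusted p = 3.63e-04). Mapk3, which encodes Erk1 and was named after its values were seen, had a log2 fold change of 0.22 (edgeR adjusted p = 0.0411) and lost the call in 8 of 12 alternatives.

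Other brakes on the pathway moved in both directions. Of 12 genes, 2 were called higher and 1 lower. At 1 CPM or more this is 27.3% of the list, beside 17.0% of all genes at that level. Without WT1, 5 were called, while the count over all genes also went from 2420 to 3274. Errfi1, an inhibitor of the EGF receptor, was at 58.1 ± 2.95 CPM in WT and 109 ± 6.18 CPM in KO (log2 fold change 0.91, edgeR adjusted p = 1.55e-28). Dusp5, a nuclear Erk phosphatase, was at 19.0 ± 1.68 CPM and 27.8 ± 0.440 CPM (0.54, edgeR adjusted p = 1.03e-05), opposite in direction to Dusp4. Rasa1, a Ras GTPase-activating protein outside the rule for naming, was lower (log2 fold change -0.37, edgeR adjusted p = 7.59e-06).

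Of 18 transcripts known to be induced by Erk or serum, 13 were called, 11 higher and 2 lower, with a median log2 fold change of 0.52. All 18 had at least 1 CPM, so the 72.2% called stand beside the 17.0% and the median beside the -0.01 given above. Egr1, an immediate early transcription factor, was at 68.7 ± 3.71 CPM in WT and 142 ± 9.52 CPM in KO (log2 fold change 1.04, edgeR adjusted p = 1.06e-39). Its relatives Egr3 (1.85) and Egr2 (1.09), the AP-1 subunit gene Junb (0.88), Phlda1 (0.84) and the EGF-family ligand Hbegf (0.69) rose as well on the log2 scale. Ccnd1, the cyclin of the G1 phase, and Myc, both named after their values were seen, fell by 0.45 and 0.32 on the log2 scale (edgeR adjusted p = 3.02e-08 and 5.47e-04). Spry1, Spry4, Dusp4 and Etv1, the called ones of 11 feedback inhibitors, phosphatases and ETS factors, moved in one direction and most of this list in the other. Of the other brakes called, Errfi1 and Dusp5 rose and Rasa1 fell.

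**Figure D4:**
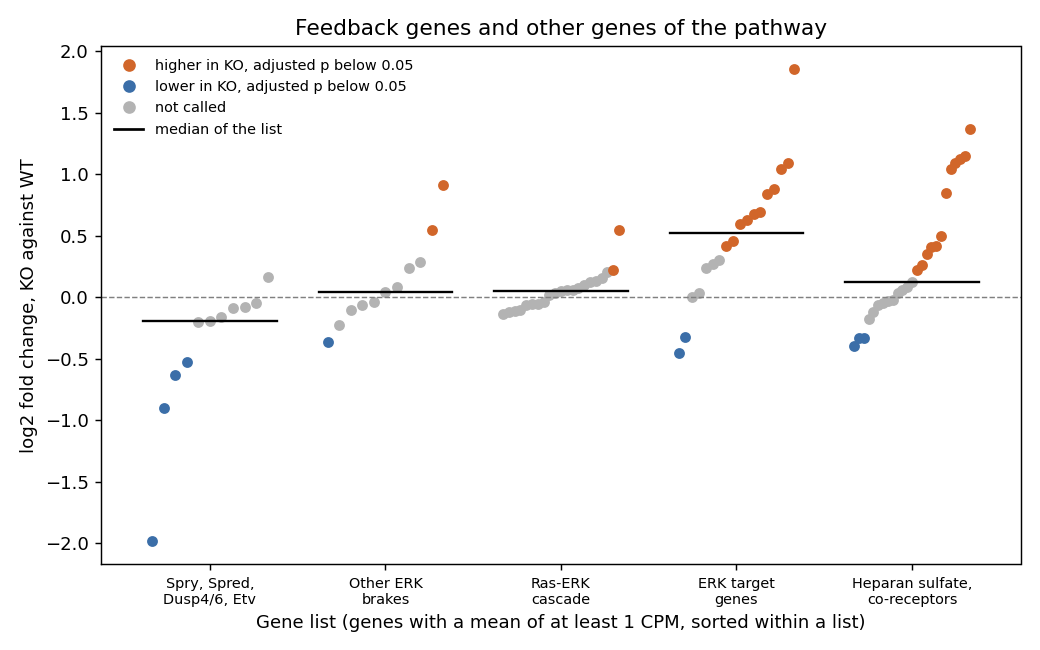
log2 fold change of KO against WT for genes with a mean of at least 1 CPM in 5 lists, each sorted by value, with the median of the list as a black line. Called genes are orange (higher in KO) or blue (lower), and gray genes were not called. The called genes of the Spry, Spred, Dusp4/6 and Etv list all lie below 0, while 11 of the 13 called ERK target genes lie above.

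Heparan sulfate genes and FGF co-receptors, which set how FGFs reach their receptors, moved in both directions, more of them upward. Of 29 genes, 28 were tested and 15 called, 12 higher and 3 lower, with a median log2 fold change of 0.12 over those at 1 CPM or more. The called genes were 60% of those at 1 CPM or more, beside 17.0% of all genes at that level. Among the core proteins, the syndecan Sdc4 was at 54.1 ± 5.96 CPM in WT and 119 ± 4.42 CPM in KO (log2 fold change 1.14, edgeR adjusted p = 4.41e-45). The glypican Gpc1 was at 83.8 ± 6.46 CPM and 179 ± 7.44 CPM (1.09, edgeR adjusted p = 4.94e-46), and the scarce Gpc2 rose by 1.36 on the log2 scale, a call lost without KO2 (edgeR adjusted p = 0.0888). Sulf1, a sulfatase that trims heparan sulfate outside the cell, an activity known to dampen FGF signaling, was at 24.3 ± 1.38 CPM and 52.8 ± 2.37 CPM (1.12, edgeR adjusted p = 1.35e-30). Flrt1, a membrane protein that binds FGF receptors, rose by 1.04 and Hpse, heparanase, by 0.85, the latter lost without KO3 (edgeR adjusted p = 0.0552). The 3 that fell, named after their values were seen, were the epimerase gene Glce (-0.33) and the glypicans Gpc4 (-0.40) and Gpc6 (-0.34), the last not called without WT3 or KO1.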

How the data were processed

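RNA was extracted with TRIzol and made into NEBNext Ultra libraries, sequenced on a NovaSeq 6000 in 150-base pairs. The authors aligned reads with HISAT2 2.0.5 and counted them per gene with featureCounts 1.5.0-p3. The deposited counts are unnormalized whole numbers per gene. The deposited FPKM values are these counts per kilobase of exon and 1000000 reads. The paper names Ensembl 106 and the labels GRCm38, but the coordinates of 0 of 42 members equal GENCODE M21 (GRCm38), so no coordinates of the files are printed and promoter positions are RefSeq's. Strand use in counting was not given in the sources used here. 0 sample columns were left unused.

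Here, counts were tested with edgeR 4.0.16 (TMM factors 0.98 to 1.01, quasi-likelihood test, unpaired, all genes whose FPKM exceeded 0 in any library) and adjusted by Benjamini-Hochberg over 26898 genes, at a threshold of 0.05. A DEG also had an absolute log2 fold change above 1. The common biological coefficient of variation was 0.078 and the prior degrees of freedom were infinite, so a gene that varies more than the fitted trend gets too small a p-value. CPM were normalized with TMM, and given as mean ± SD. Shares of summed FPKM were compared by exact permutation over libraries. DESeq2 1.42.0, limma 3.58.1 (voom), other size factors (RLE), other filters, a replicate block and leaving out each library were the alternatives. The fits were tested on simulated data. Same-numbered WT and KO libraries did not deviate together (r = -0.00343, -0.00544 and 0.0416 over 13222 genes) and were not treated as pairs. The rule named every member with a mean of at least 1 CPM, called genes of each pathway list with an absolute log2 fold change above 0.5 (at most 6 per list), Mcm8, and genes overlapping called members, of which those with 20 or fewer counts are mostly left unnamed and, for Fgfr2, only called ones are named. The members, lists and tests were chosen with earlier results of these data known.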

Additional observations from a re-analysis of the deposited data

How the results depend on the processing

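Of the 10 called members, 8 (Dusp4, Spry1, Spry4, Fgfr2, Fgf10, Fgf7, Fgf5 and Etv1) were called in all 12 alternatives, while Fgf2 lost the call in 8 and Fgfrl1 in 4. The number of called members was 8 with DESeq2, 9 with limma-voom, 9 with the stricter filter on low counts and 8 to 12 with a library left out. Members past a 2-fold change numbered 4, and 2 to 4 with a library left out. Without KO1 both Fgf10 (log2 fold change -0.97) and Fgf7 (0.97) fell just under 2-fold, as did Fgf7 without KO2 (0.98) and Fgf10 without WT1 (-0.99) or WT2 (-0.99), each still called. Called Ras-ERK cascade genes numbered 2, but 1 with DESeq2, 1 with limma-voom, 1 with the stricter filter and 1 to 5 with a library left out, the 5 being without WT1. Called genes among the other ERK brakes went from 3 to between 3 and 5, the 5 again without WT1. Single-gene values in the alternatives were compared for a chosen set of genes, not for every tested member. Of these 717 values, 675 kept direction and side of the threshold, 35 lost the call, 4 gained it and 3 reversed, none of them called. With a library left out, Fgfbp3 ranged from -0.18 (KO1) to 0.27, with -0.10 without WT2, and Fgfr3 from -0.014 (WT3) to 0.33. Outside that set, the low-count members Fgf11, Fgf13, Fgf17, Fgf18 and Fgfr4 also changed sign with a library left out, and none was called.

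The replicate numbers were shared by both genotypes, and with the replicate number as a block 10 members were called, with 2365 genes called and 603 DEGs over all genes. Since the deviations of same-numbered libraries did not correlate, the block does not stand for a known pairing. Over all genes 2420 were called, against 1772 with DESeq2 and 1896 with limma-voom, and 1636 to 3274 when single libraries were dropped. For the share of the Fgf7 subfamily, the difference went from -4.02 to -0.62 points with CPM and lay between -5.03 and -2.94 when single libraries were dropped, and that of Fgfr1 between -2.42 and -1.95, where the smallest exact p is 0.2. With only members of at least 1 FPKM the Fgf7 subfamily share has no value, since Fgf7 and Fgf10 alone are left. Depth limits Fgf5, Fgf9, Fgf21 and the other members with few counts per library, where a difference was not detectable unless large.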
